A study of Arabidopsis thaliana with 12 samples.

Results

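The genes described here are 45 Arabidopsis thaliana genes whose transcripts were much higher after 1 h of dehydration in both plant lines of the study. They are 45 of the 13264 nuclear genes that a probe set of the array names. A gene belongs to the group where the mean log2 signal of the dehydrated seedlings exceeded that of the control seedlings by at least 2, which is 4-fold, in each line, and where the dehydrated mean was at least 8, a linear signal of 256, in each line. Each gene is read from 1 probe set, the one with the highest mean over the 12 arrays. Of 53 genes that met the thresholds, 8 are left out by name, namely PUB19, PUB23, PUB24, WRKY53, CML38, STZ, AT5G52750 and AT2G24600. The genes were chosen by their measured responses to dehydration and their dehydrated levels on these arrays, so the responses are given below as a description and without a test. Differences between the lines at a given condition were tested. The choice did not use them directly, but it bounds all 4 group means and so limits them, and 2 of the 8 genes left out by name were called for the line.

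The study hybridised RNA of 1-week-old seedlings to Affymetrix ATH1 arrays in 4 groups of 3 biological replicates. WT is wild-type Col-0, and 46T is a line that overexpresses the transcription factor WRKY46. The promoter of the transgene and the number of independent transformants behind 46T are not given in the sources used here, so a difference between the lines is a difference between WT and this line. All seedlings grew in cycles of 16 h light and 8 h dark, at 24 °C by day and 21 °C by night. The control groups, WT-CK and 46T-CK, were left untreated. The dehydrated groups, WT-Dry and 46T-Dry, lay for 1 h on filter paper in dim light, at 22 °C and 60% humidity. Loss of water, handling and dim light came together in the dehydrated groups and cannot be told apart. Whole seedlings were used, so fewer cells of a type and less RNA per cell cannot be told apart either. The level of WRKY46 itself was not analysed here, because no probe set used here carries its name, and the overexpression in 46T is known from the labels alone.

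Plants that lose water change the level of many transcripts soon after the stress begins. Part of this response runs through the hormone abscisic acid, which closes stomata and turns on protective proteins such as dehydrins. Another part is shared with touch, wounding and defence, runs through calcium and jasmonate signals, and brings transcripts from a low level to a high one for a short time. WRKY factors bind DNA and act in both stress and defence signalling.

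The trimmed mean of the linear signal was 500.05 or 500.06 on each of the 12 arrays, and 169 to 394 of the values on an array were 0. The values were used as MAS5 gave them, so equal trimmed means may be set by the processing and do not show that the arrays were alike. The median log2 signal of an array ran from 7.004 on WT-CK replicate 1 to 7.484 on 46T-Dry replicate 2. The 40th percentile ran from 6.125 to 6.599 on the same 2 arrays. Within a group, Spearman's rho between arrays was 0.910 to 0.988 over the 14495 probe sets tested. RCA, the rubisco activase of photosynthetic tissue, lay between 14.74 and 15.18 on the log2 scale on every array. EXPA7, an expansin of root hairs, lay between 3.38 and 5.97 and did not pass the filter on low signals. In the control seedlings, the log2 ratio of 3′ to 5′ signal of the GAPDH control was 0.78 to 1.21 in WT and 1.101 to 1.28 in 46T. In the dehydrated seedlings it was 0.83 to 0.92 in WT and 1.11 to 1.22 in 46T, with no overlap. The same ratio for ubiquitin was 1.57 to 2.101 in control and 1.16 to 1.52 in dehydrated seedlings, over both lines. For actin the ratio was larger, 4.02 to 4.98 over the 12 arrays. The added poly-A control transcripts had a mean log2 signal of 7.86 to 8.79 on the WT arrays and 7.76 to 7.95 on the 46T arrays. The part of these measures in the results below was not tested.

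In control seedlings most of the 45 genes gave low signals. The signals of different probe sets do not rank transcripts by abundance, since probes differ in how well they bind. Their mean log2 signals ran from 3.24 to 9.01 in WT-CK, with a median of 6.62, and from 2.58 to 8.97 in 46T-CK, with a median of 6.53. The median signal stood at percentile 11.1 of the tested probe sets in WT-CK and at percentile 7.5 in 46T-CK. The tested probe sets leave out those with low signals on most arrays, which lowers these percentiles. Over all non-control probe sets, the 40th percentile of an array was 6.13 to 6.50 in WT-CK and 6.38 to 6.50 in 46T-CK. Both medians of the 45 genes lay above it. After dehydration the medians were 9.46 in WT-Dry and 9.70 in 46T-Dry, at percentiles 67.9 and 71.1. The dehydrated level was held above 8 by the choice of genes, whereas the low control level was bounded only through the response. All 45 genes passed the filter on low signals, and 28 of them would have passed on the control arrays alone. The other 17 passed only through their dehydrated arrays, so their control signals are low and what is computed from them is imprecise.

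The response, dehydrated minus control on the log2 scale, ran from 2.02 to 4.81 in WT, with a median of 2.59, which is 6.02-fold. In 46T it ran from 2.02 to 6.69, with a median of 2.96, which is 7.78-fold. It was at least 3 for 14 genes in WT and for 21 genes in 46T, and for 13 genes in both. It was at least 4 for 5 genes in WT and 7 in 46T, and for 4 genes in both, AT3G02840, AT4G27657, AT4G29780 and AT5G45630. In each line all 45 genes had every dehydrated array above every control array. That order held for 13.4% of all tested probe sets in WT and for 15.6% in 46T, and the choice of genes used this contrast.

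**Figure D1:**
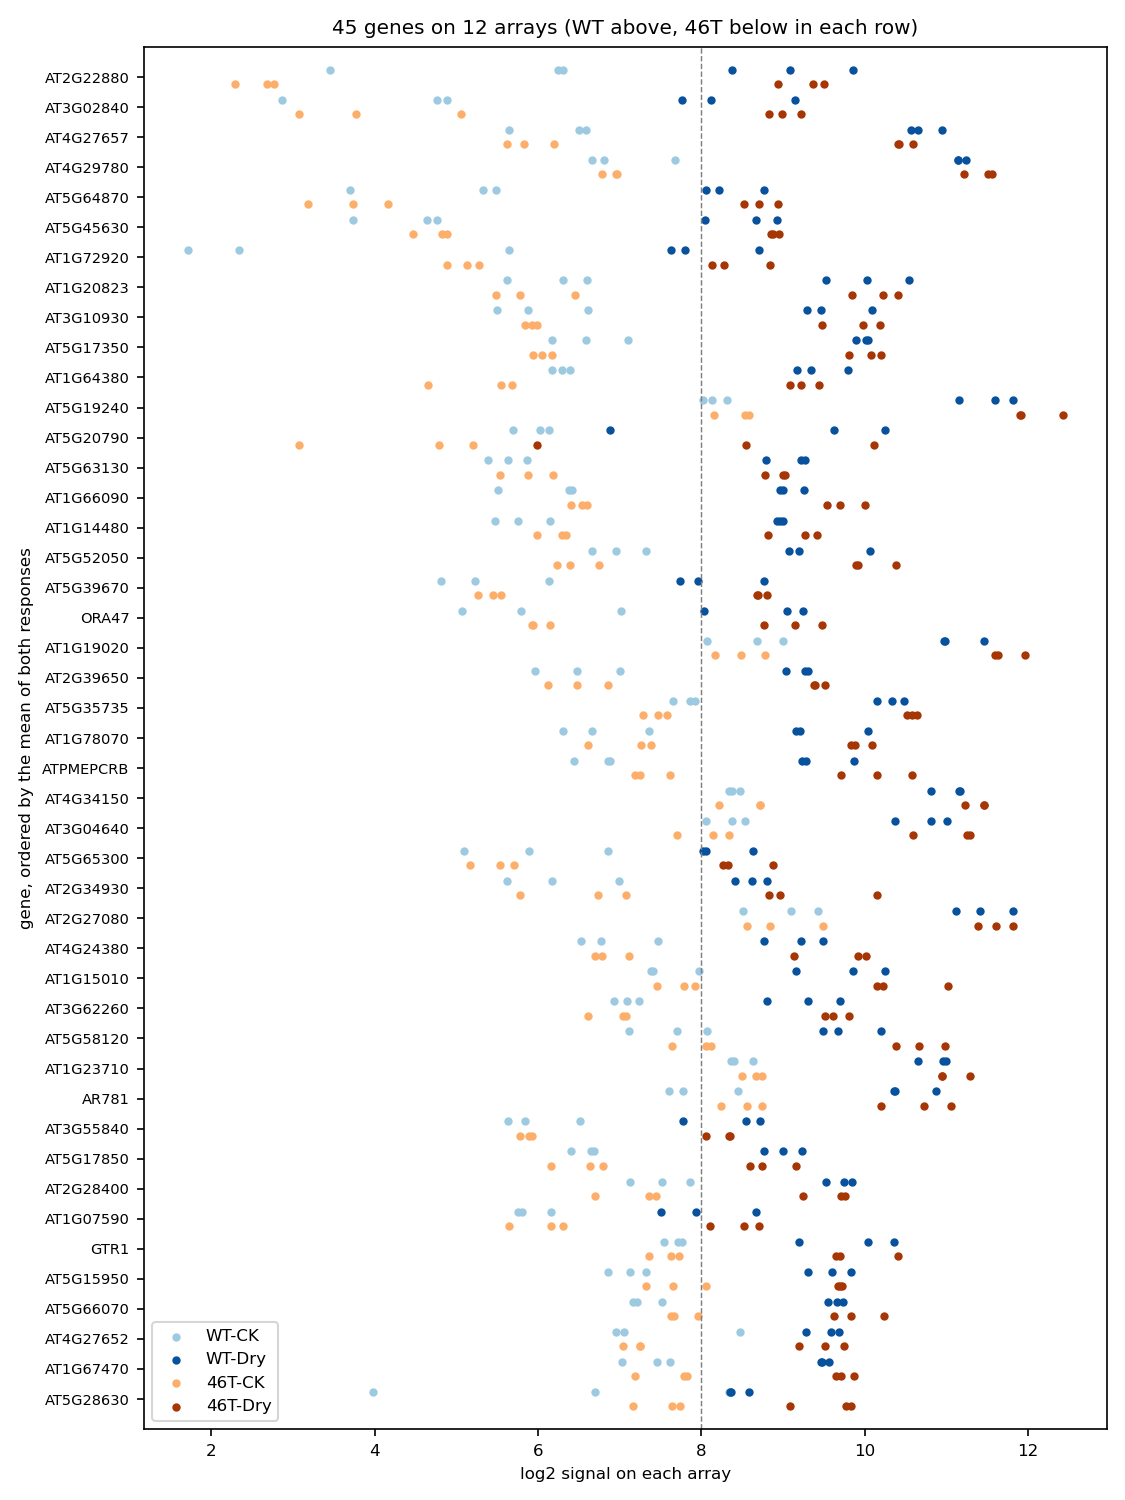
The log2 signal of each of the 45 genes on each of the 12 arrays (x axis), 1 row a gene in order of the mean of both responses (y axis); light and dark blue points are WT-CK and WT-Dry, light and dark orange points 46T-CK and 46T-Dry, and the dashed line marks a log2 signal of 8. Within a line the dark points lie to the right of the light points in every row, by as little as 0.014 for AT5G28630 in WT.

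AT2G22880 had the largest mean response. Its log2 signals were 6.25, 6.31 and 3.46 in WT-CK and 9.85, 8.37 and 9.09 in WT-Dry. In 46T they were 2.77, 2.29 and 2.69 in control and 9.37, 8.94 and 9.50 in dehydrated seedlings. The dehydrated levels of the lines overlapped, and the control levels did not, 46T being lower on every array. The response was accordingly 3.77, or 13.6-fold, in WT and 6.69, or 103-fold, in 46T. The 46T control signals are among the lowest of the probe sets tested, where a fold change is imprecise. With a pseudocount of 50 on the linear signal the responses were 2.599 in WT and 3.58 in 46T, and AT4G27657 had the largest response in WT, 3.77, and AT4G29780 in 46T, 4.04.

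AT4G27657 and AT4G29780 had large responses, with close replicates after dehydration and wider ones in WT-CK, where the SDs were 0.52 and 0.55 (n = 3 each). AT4G27657 read 6.50, 6.59 and 5.65 in WT-CK against 10.66, 10.95 and 10.56 in WT-Dry, and 5.83, 6.20 and 5.62 in 46T-CK against 10.42, 10.60 and 10.41 in 46T-Dry. Its responses were 4.48 in WT and 4.59 in 46T, and the dehydrated arrays of the lines overlapped. AT4G29780 read 6.80, 7.67 and 6.66 in WT-CK against 11.14, 11.24 and 11.14 in WT-Dry, and 6.95, 6.97 and 6.79 in 46T-CK against 11.56, 11.21 and 11.51 in 46T-Dry. Its responses were 4.13 and 4.52.

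AT4G27657 has a near neighbour in the group. In the RefSeq annotation 1 protein-coding gene, AT4G27654, lies between it and AT4G27652. The responses of AT4G27652 were 2.02 in WT and 2.31 in 46T, close to the threshold. AT4G27654 had responses of 2.48 and 2.86, and is no member because its dehydrated means, 7.87 and 7.63, fell short of 8. All 3 neighbours thus had responses above 2 in both lines.

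AT3G02840, AT5G64870 and AT5G45630 started from low control signals. AT3G02840 read 4.89, 2.87 and 4.77 in WT-CK and 5.06, 3.77 and 3.08 in 46T-CK, against 9.15, 8.12 and 7.77 in WT-Dry and 9.22, 8.83 and 8.99 in 46T-Dry. Its control arrays were widely spread, with an SD of 1.13 in WT and 1.01 in 46T (n = 3 each), and its responses were 4.17 and 5.04. AT5G64870 read 3.70, 5.32 and 5.49 in WT-CK and 3.18, 4.17 and 3.73 in 46T-CK, against 8.22, 8.77 and 8.06 in WT-Dry and 8.94, 8.71 and 8.53 in 46T-Dry. Its responses were 3.52 and 5.03. AT5G45630 read 4.65, 3.74 and 4.76 in WT-CK and 4.47, 4.83 and 4.88 in 46T-CK, against 8.67, 8.93 and 8.05 in WT-Dry and 8.86, 8.88 and 8.96 in 46T-Dry. Its response was 4.17 in both lines.

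AT1G72920 had the largest response in WT, and that value rests on low and widely spread control signals. It read 1.71, 5.65 and 2.34 in WT-CK and 8.71, 7.80 and 7.63 in WT-Dry, and the response was 4.81. In 46T it read 4.89, 5.28 and 5.13 in control and 8.85, 8.13 and 8.28 in dehydrated seedlings, and the response was 3.32. The SD of the WT control arrays was 2.11 (n = 3), with replicate 2 above every 46T control array and replicates 1 and 3 below. With a pseudocount of 50 the responses were 2.25 in WT and 2.22 in 46T, and with a floor at 5 they were 2.83 and 3.29, so the order of the lines turned with the floor.

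The other genes among the 12 with the largest mean response were AT1G20823, AT3G10930, AT5G17350, AT1G64380 and AT5G19240. Their responses ran from 3.15 to 3.86 in WT and from 3.66 to 4.26 in 46T. AT5G19240 gave a clear signal already in control seedlings, reading 8.02, 8.13 and 8.32 in WT-CK and 8.54, 8.58 and 8.15 in 46T-CK. It reached 11.82, 11.60 and 11.16 in WT-Dry and 12.43, 11.90 and 11.91 in 46T-Dry. It is 1 of the 4 genes with the highest dehydrated signals, with AT4G29780, AT1G19020 and AT2G27080. The dehydrated means of AT1G19020 were 11.14 ± 0.28 (SD, n = 3) in WT and 11.73 ± 0.20 (SD, n = 3) in 46T. Those of AT2G27080 were 11.45 ± 0.35 (SD, n = 3) and 11.61 ± 0.22 (SD, n = 3). Its control means were 9.01 ± 0.46 (SD, n = 3) in WT and 8.97 ± 0.48 (SD, n = 3) in 46T.

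Genes with a lower control signal had the larger responses, a relation that the threshold on the dehydrated level helps to set. The response also subtracts the control mean by which the genes are split here, so the relation is a description only. The 17 genes with a control mean under 6 in either line, not the same set as the 17 above, had a median mean response of 3.55, and the other 28 had one of 2.54. Low signals also lose most to a pseudocount. With 50 added to each linear signal, the median response was 2.24 in WT and 2.42 in 46T, and 28 of the 45 genes stayed at 2 or above in both lines.

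The annotation used here gives a symbol for 4 of the 45 genes, and 41 go by their locus tag. That share, 91.1%, is close to the 88.9% of all genes with a named probe set. ORA47 is an AP2/ERF transcription factor that activates genes of jasmonate synthesis. It read 7.01, 5.07 and 5.80 in WT-CK against 9.05, 9.24 and 8.03 in WT-Dry, and 6.15, 5.93 and 5.94 in 46T-CK against 9.48, 8.77 and 9.14 in 46T-Dry. The response was 2.82 in WT and 3.13 in 46T, and the 46T control arrays lay inside the range of the WT ones.

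AT5G52050, one of the genes under a locus tag, has DTX50 among its synonyms in the annotation and is an efflux carrier of the MATE family known to export abscisic acid from cells. It read 6.96, 6.66 and 7.32 in WT-CK against 10.06, 9.19 and 9.07 in WT-Dry, and 6.23, 6.75 and 6.40 in 46T-CK against 10.38, 9.89 and 9.92 in 46T-Dry. The response was 2.46, or 5.51-fold, in WT and 3.61, or 12.2-fold, in 46T, one of the 6 largest differences in response between the lines in size.

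The remaining 3 genes with a symbol were chosen for mention after their values were seen. ATPMEPCRB, a pectin methylesterase that alters the pectin of the cell wall, read 6.45, 6.85 and 6.88 in WT-CK against 9.87, 9.28 and 9.24 in WT-Dry, and 7.19, 7.61 and 7.25 in 46T-CK against 10.58, 10.15 and 9.71 in 46T-Dry. Its responses were 2.74 and 2.80, and its control level was higher on every 46T array than on any WT array. GTR1 is a transporter of glucosinolates, the defence compounds of cabbage relatives. It read 7.72, 7.54 and 7.77 in WT-CK against 10.36, 10.04 and 9.20 in WT-Dry, and 7.73, 7.36 and 7.64 in 46T-CK against 10.41, 9.65 and 9.71 in 46T-Dry. Its responses were 2.19 and 2.35. AR781, for which no role is given, had responses of 2.59 and 2.15.

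The 45 genes lay on all 5 chromosomes, with 12, 6, 6, 6 and 15 on chromosomes 1 to 5. Chromosome 5 held 33.3% of them and 22.5% of the genes with a named probe set. All 45 code for proteins.

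**Figure D2:**
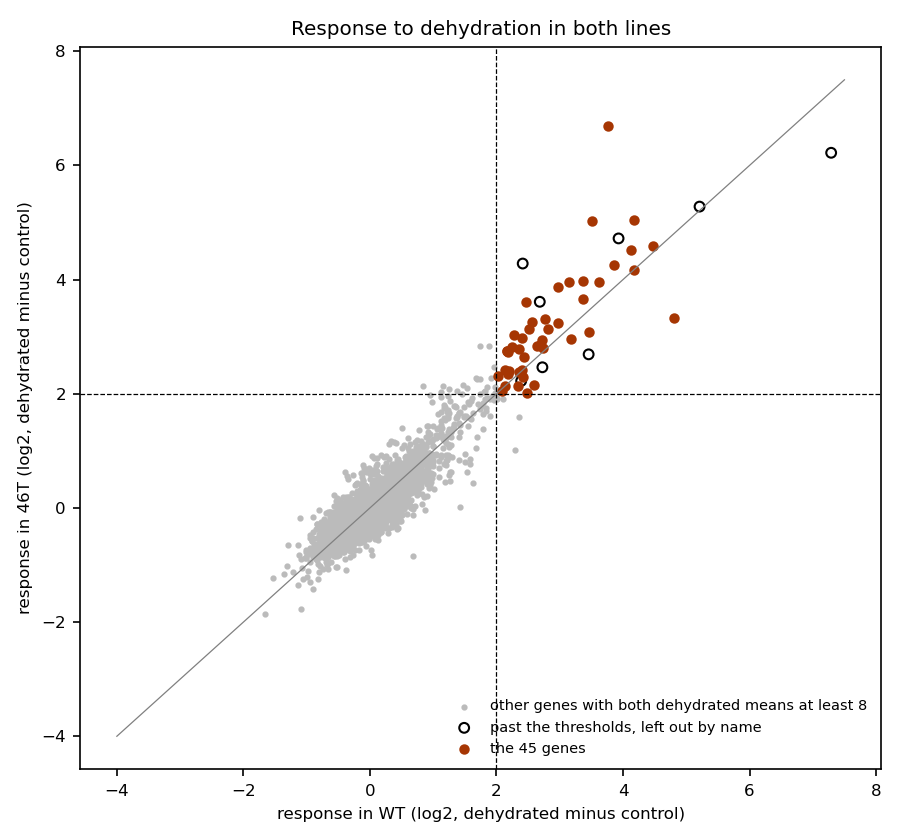
The response in WT (x axis) and in 46T (y axis), both log2 dehydrated minus control, of the 4490 genes with both dehydrated means at least 8; filled points are the 45 genes, open circles the 8 genes left out by name, dashed lines the threshold of 2 and the grey line equal responses. The 45 genes begin at 2.02 in both lines, where other genes continue without a gap, and AT2G22880 is the filled point highest in 46T, at 6.69.

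The threshold of 2 cuts through a continuous range. Just inside it were AT5G15950, with responses of 2.48 in WT and 2.02 in 46T, AT4G27652, with 2.02 and 2.31, and AT5G28630, with 2.09 and 2.05. Just outside it were AT2G41640, with 1.98 and 2.01, AT2G26190, with 1.98 and 2.11, and AT4G36500, with 1.96 and 2.46. Another 39 genes at the same dehydrated level had a smaller response between 1.5 and 2. A response of 2 was reached by 5 genes in WT alone and by 19 in 46T alone. At any dehydrated level, 100 genes reached it in both lines. No gene with both control means at least 8 fell by 2 or more in both lines.

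AT5G28630 shows how little separates a gene near the threshold from those outside it. It read 3.98, 8.34 and 6.69 in WT-CK and 8.58, 8.36 and 8.35 in WT-Dry. In 46T it read 7.64, 7.74 and 7.17 in control and 9.84, 9.78 and 9.08 in dehydrated seedlings. Replicate 2 of WT-CK lay 0.014 below the lowest WT-Dry array, and the group SD in WT-CK was 2.20 (n = 3). Of the 45 genes, 29 stayed in the group whichever single array was left out, and 16 did not, AT5G28630 among them.

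The group was also more variable within its groups of arrays than the tested probe sets in general. The median SD over the 45 genes was 0.46 in WT-CK, 0.34 in WT-Dry, 0.26 in 46T-CK and 0.28 in 46T-Dry, against 0.32, 0.19, 0.14 and 0.18 over all tested probe sets. The probe sets compared were not matched for signal level. In control seedlings 43 of the 45 genes in WT and 44 in 46T lay under the median of all tested. Some of the variation was shared. In WT-Dry, replicate 3 was the lowest of the 3 arrays for 31 of the 45 genes, or 68.9%, against 31.0% of all tested probe sets. Replicate 1 was the highest for 27, or 60.0%, against 29.3%. The median log2 signal of the 45 genes was 9.68, 9.49 and 9.16 on WT-Dry replicates 1 to 3, and 9.84, 9.70 and 9.71 on those of 46T-Dry. Over all tested probe sets the median deviation of these 6 arrays from the group mean stayed between -0.03 and 0.03.

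AT5G20790 varied most after dehydration. It read 10.25, 9.62 and 6.89 in WT-Dry and 10.12, 8.55 and 5.99 in 46T-Dry, with the replicate numbered 3 lowest in both lines. Its control signals were 5.69, 6.14 and 6.02 in WT and 5.21, 4.78 and 3.08 in 46T. The responses of 2.97 and 3.87 therefore rest on dehydrated arrays with an SD of 1.79 in WT and 2.09 in 46T (n = 3 each).

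**Figure D3:**
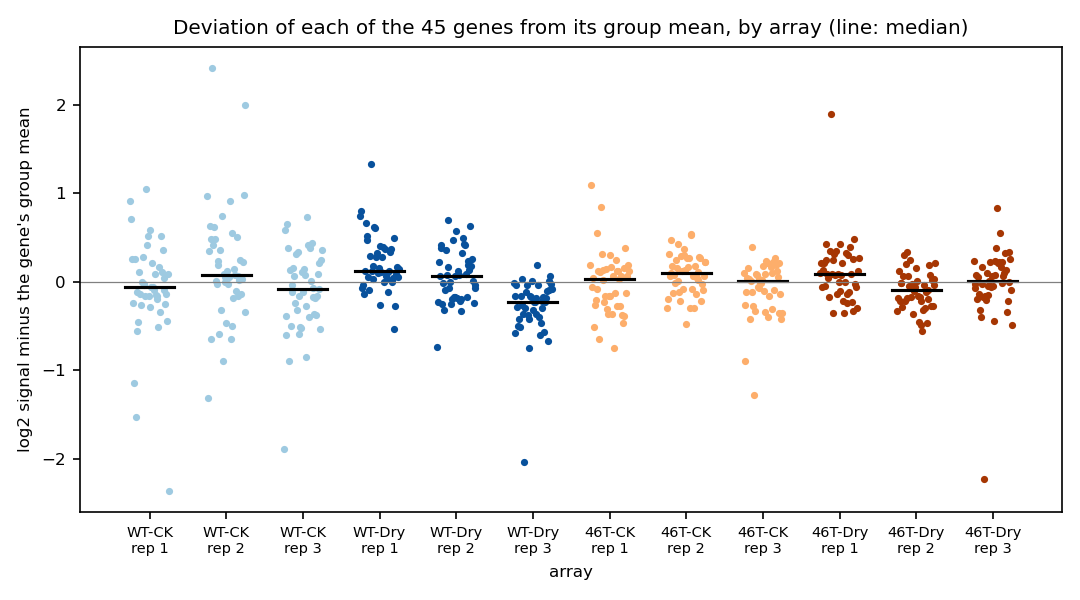
The log2 signal of each of the 45 genes minus its mean over the 3 arrays of the group (y axis), for each of the 12 arrays (x axis); points are genes and black lines medians over the genes. The median on WT-Dry replicate 3 is -0.22, the lowest of the 12, and that on WT-Dry replicate 1 is 0.13.

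Did the WRKY46 line start from another level of these genes? In control seedlings no gene of the group passed the test. In limma's moderated test with Benjamini-Hochberg adjustment, 0 of the 45 genes were called at an adjusted p below 0.05, against 0.359% of all tested probe sets, of which 0.262% were higher and 0.0966% lower in 46T. At an unadjusted p below 0.05 there were 10, of which 5 were higher and 5 lower in 46T, or 10 of 45 against 13.7% of all tested probe sets. The names left out when the group was drawn bear on this count, since AT5G52750, which met the thresholds, was called, at 2.32 ± 0.29 (SE) higher in 46T with an adjusted p of 0.00202 in limma. The median difference, 46T minus WT, was -0.05 over the 45 genes and 0.07 over all tested probe sets, with 22 genes higher and 23 lower. Without single arrays it ran from -0.05 to 0.05, so its sign is not settled.

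The low control signals limit this test. With the filter applied to the control arrays alone, a setting added after the data were seen, the 28 genes that pass gave 0 calls, against 0.39% of the 13860 probe sets then tested. At an unadjusted p below 0.05 there were 6, against 13.6%, and the smallest adjusted p in limma was 0.29.

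The smallest p in control seedlings belonged to AT2G22880, which did not pass and is 1 of the 17 genes that passed the filter only through their dehydrated arrays. Its mean was 5.34 ± 1.63 (SD, n = 3) in WT-CK and 2.58 ± 0.26 (SD, n = 3) in 46T-CK, a difference of -2.75 ± 0.60 (SE) with an adjusted p of 0.0736 in limma. With a floor at 5 the difference was -0.85, with an adjusted p of 0.347 in limma, and with the pseudocount -0.83, with one of 0.31. AT1G64380, which also passed only that way, followed, reading 6.40, 6.30 and 6.17 in WT-CK and 4.65, 5.55 and 5.69 in 46T-CK, a difference of -0.99 ± 0.26 (SE) with an adjusted p of 0.148 in limma. Arrays of the lines did not overlap for 3 genes with 46T above, ATPMEPCRB, AT5G15950 and AT5G66070, against 8.85% of all tested probe sets. They did not overlap for 4 genes with 46T below, AT2G22880, AT1G64380, AT5G20790 and AT5G35735, against 6.13%. For 31 of the 45 genes the 95% interval of the difference lay within -1 to 1.

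The count in control seedlings depended on the WT-CK arrays. WT-CK replicate 2 was the highest of its group for 43.4% of all tested probe sets, and replicate 1 the lowest for 48.0%. Spearman's rho of replicate 1 was 0.910 with replicate 2 and 0.944 with replicate 3, against 0.963 between replicates 2 and 3. Without replicate 2, 5 of the 45 genes were called, together with 11.3% of all tested probe sets. The 5 were AT1G72920, AT5G28630 and AR781, higher in 46T, and AT2G22880 and AT1G64380, lower in 46T. Of these, AT1G72920, AT2G22880 and AT1G64380 passed the filter only through their dehydrated arrays. Without WT-CK replicate 3 AT2G22880 alone was called, at -3.70 with an adjusted p of 0.00101 in limma, and without replicate 1 AT5G64870 alone, at -1.71 with an adjusted p of 0.0259 in limma.

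**Figure D4:**
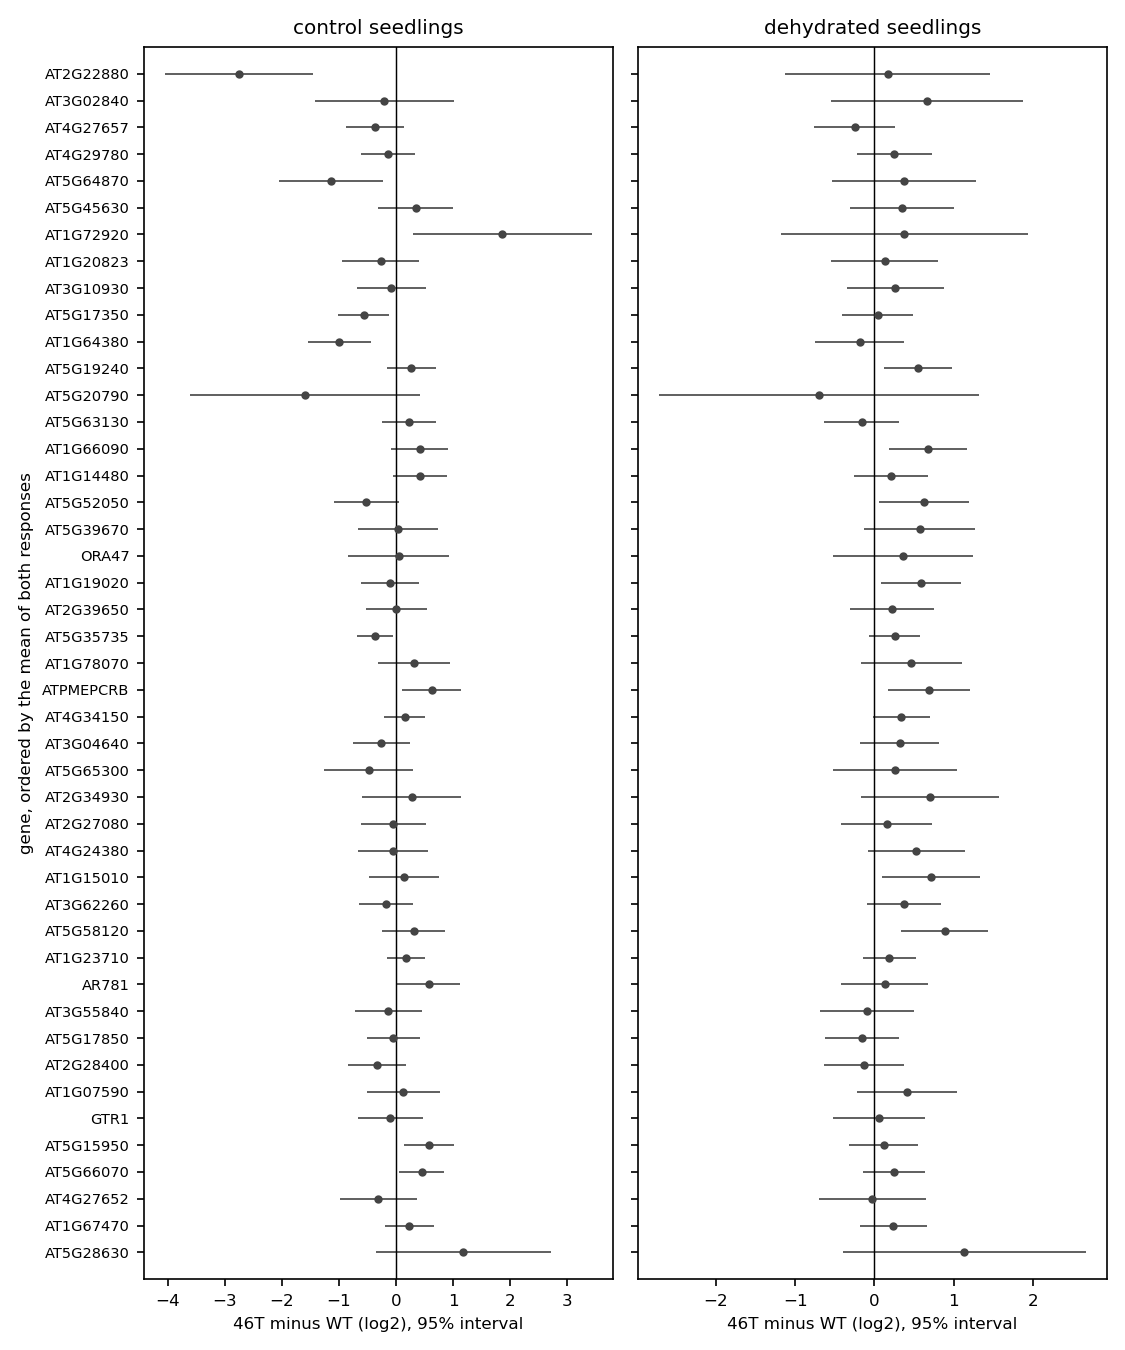
The difference 46T minus WT (x axes, log2) of each of the 45 genes (y axis, in order of the mean of both responses) in control seedlings (left) and dehydrated seedlings (right); points are fitted differences and bars their 95% intervals. In control seedlings 22 of the 45 points lie above 0, and in dehydrated seedlings 37 do.

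In dehydrated seedlings more of the genes had a higher mean in 46T than in WT, and no single gene passed the test. The median difference was 0.26 over the 45 genes and 0.03 over all tested probe sets, and 37 of the 45 genes, 82.2%, were above 0, against 54.9% of all tested probe sets. The count called was 0 of 45 in limma at an adjusted p below 0.05 against 0.152% of all tested probe sets. At an unadjusted p below 0.05 there were 7, all higher in 46T, against 9.64% of all tested probe sets in either direction. AT2G24600, another of the genes left out by name, was called, at 1.24 ± 0.16 (SE) higher in 46T with an adjusted p of 0.00331 in limma. For 25 of the 45 genes the 95% interval lay within -1 to 1.

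The smallest p in dehydrated seedlings was that of AT5G58120. It read 9.68, 10.20 and 9.50 in WT-Dry and 10.99, 10.38 and 10.67 in 46T-Dry, a difference of 0.89 ± 0.26 (SE) with an adjusted p of 0.308 in limma. AT1G66090 read 9.26, 9.001 and 8.96 in WT-Dry and 10.001, 9.70 and 9.55 in 46T-Dry, a difference of 0.68 ± 0.23 (SE) with an adjusted p of 0.383 in limma. For both, every 46T array lay above every WT array, and neither passed. Such separation with 46T above held for 10 of the 45 genes, against 14.6% of all tested probe sets, and with 46T below for none, against 8.75%.

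WT-Dry replicate 3, the array on which these genes were low, moved the shift between the lines. Without it the median difference was 0.17 and 35 of the 45 genes were above 0. Without any other single array the median difference stayed between 0.25 and 0.36. The GAPDH 3′ to 5′ ratio of 46T-Dry lay above that of WT-Dry on every array, as given above, and its part in the shift was not tested.

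The difference between the responses, 46T minus WT, combines the same values that chose the genes and is given without a test. Its median was 0.29 over the 45 genes and -0.04 over all tested probe sets, and it was above 0 for 37 genes. Without WT-Dry replicate 3 the median was 0.15 and 29 genes were above 0. The 6 largest differences in size were 2.92 for AT2G22880, 1.51 for AT5G64870, -1.49 for AT1G72920, 1.15 for AT5G52050, 0.90 for AT5G20790 and 0.87 for AT3G02840. All but AT5G52050 are among the 17 genes that passed the filter only through their dehydrated arrays. With the pseudocount the values were 0.98, 0.68, -0.03, 0.94, 0.06 and 0.64 in the same order, and with the floor that of AT1G72920 turned to 0.46. For AT2G22880, AT5G64870, AT1G72920 and AT5G20790 the control levels of the lines differed by more than the dehydrated levels. Over the whole array, the interaction of line and dehydration was called for 0 of 14495 probe sets in limma, a share of 0.0%, and 291 had an unadjusted p below 0.05.

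Genes of known dehydration, calcium, wall and defence pathways were set beside the 45 genes. Of 278 entries in 22 lists of such genes and of cell type markers, the annotation names 23, of which 19 were tested. ORA47 was the only one of the 45 genes matched by name. Since 41 of the 45 go by their locus tag, others may belong to these pathways without being matched. Of the other 18, limma at an adjusted p below 0.05 called 7 higher and 0 lower after dehydration in WT, where 7.29% of all tested probe sets were higher and 4.3% lower. In 46T it called 9 higher and 1 lower, where 6.69% were higher and 3.5% lower. STZ and CML38, among the 18, met the thresholds that chose the 45 genes and are left out by name, so their responses are a description. Without them the counts were 5 higher and 0 lower of 16 in WT, and 7 higher and 1 lower in 46T. With the filter on the control arrays alone, 14 of the 18 were tested, and 4 were higher and 0 lower in WT, and 6 higher and 1 lower in 46T. That setting called 10.6% of the probe sets then tested in WT and 8.61% in 46T, in either direction. The 14 still include STZ. The 16 still include CML23, CML37 and LEA4-5, which passed the filter only through their dehydrated arrays. No count given here leaves out both kinds of gene. With so few named genes, the counts describe these genes and not their pathways.

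The 4 tested calcium sensors are calmodulin-like proteins. The response was 2.42 ± 0.31 (SE) in WT and 4.28 ± 0.31 (SE) in 46T for CML38, one of the genes left out by name. CML37, CML23 and CML42 rose in both lines. The response was 3.14 ± 0.69 (SE) and 4.54 ± 0.69 (SE) for CML37, 1.47 ± 0.30 (SE) and 2.44 ± 0.30 (SE) for CML23, and 0.62 ± 0.16 (SE) and 1.01 ± 0.16 (SE) for CML42. CML37, CML38 and CML23 passed the filter only through their dehydrated arrays. With the pseudocount the responses were 1.31 and 2.06 for CML37 and 0.91 and 1.51 for CML23. Without WT-Dry replicate 1 the WT calls of CML37 and CML42 were lost, with adjusted p-values of 0.0522 and 0.0917 in limma, and that of CML42 was lost in 5 of 22 alternative settings. STZ, a zinc finger repressor of the stress response and also left out by name, had responses of 3.93 and 4.72. XTH18, an enzyme that remodels xyloglucan in the wall, rose by 1.88 ± 0.35 (SE) and 2.84 ± 0.35 (SE).

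Of the abscisic acid list, 3 genes were tested. COR47, a dehydrin, rose in 46T by 1.11 ± 0.23 (SE) with an adjusted p of 0.00622 in limma, and its WT difference of 0.31 ± 0.23 (SE) did not pass. LTI30, another dehydrin, and LEA4-5, a late embryogenesis abundant protein, passed in neither line. The differences were 0.65 and 0.75 for LTI30 and 1.41 and 1.74 for LEA4-5. LEA4-5 passed the filter only through its dehydrated arrays, and with the pseudocount its differences were 0.80 and 0.90. BIK1, a kinase of pattern-triggered defence, rose by 0.67 ± 0.20 (SE) in WT and 0.94 ± 0.20 (SE) in 46T. Its WT call, at an adjusted p of 0.0455 in limma, was lost in 16 of 22 alternative settings, among them that without WT-Dry replicate 1, at 0.204. RING1, a ubiquitin ligase, rose 2.15-fold in 46T, and its WT difference of 0.55 did not pass. Without 46T-CK replicate 1 its adjusted p in limma was 0.0669. The interaction of line and dehydration was called for neither COR47 nor RING1.

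FMA, a factor of guard cell identity, was the list gene called lower in 46T. The count of list genes called lower there was 3 with the replicate block, 4 with the control and dehydrated groups of 46T fitted alone and 5 with array weights. In the same order, these settings called 11.0%, 21.2% and 26.0% of all tested probe sets in 46T, in either direction. FMA read 7.47, 7.11 and 6.77 in 46T-CK and 5.36, 6.09 and 5.81 in 46T-Dry, a difference of -1.37 ± 0.31 (SE) with an adjusted p of 0.0105 in limma. Its WT difference of -0.41 did not pass, and its interaction of line and dehydration was not called. Without 46T-CK replicate 1 or 46T-Dry replicate 1 the adjusted p of its 46T difference in limma was 0.0621 or 0.0625. RCA changed by 0.02 in WT and -0.03 in 46T and was not called. EIN3, ATL8, XERICO, BRH1 and GI, the other tested list genes, were not called in either line in the fit of all 4 groups.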

How the data were processed

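Total RNA of 12 samples was amplified, labelled with biotin and hybridised to ATH1 arrays. Per the submitters' processing notes, MAS5, with no version stated, produced the deposited values. That the deposited values are on the log2 scale was read from the values: back on the linear scale, every array had a trimmed mean of 500.05 or 500.06. They were used as deposited, without further normalization. Control probe sets (64 of 22810) were left out. Of the rest, 13513 name 1 gene, of which 13436 matched RefSeq (TAIR10.1 annotation, used for names and gene order only), and 503 name several. The array table names no genome build, so no coordinates are printed.

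Group means were fitted with limma 3.58.1 in R 4.3.3 (lmFit, eBayes with an intensity trend), over 14495 probe sets above the 40th percentile on at least 3 arrays. P-values were two-sided and Benjamini-Hochberg adjusted over all of them, with calls at 0.05. All 4 groups shared 1 estimate of spread. Precision is limited by there being 3 arrays a group. The fit was tested on simulated data. The rule, the members, the lists and the tests were chosen with earlier results of these data known. Genes were named by rule: the 12 largest mean responses, 3 on each side of the threshold, the 2 smallest p in each line difference where none was called, the 6 largest differences in response, the 4 highest dehydrated levels, and members and called genes of the lists. Other genes named were chosen after their values were seen. Alternatives changed the normalization, floor, pseudocount, filter, variance prior, array weights, groups fitted, replicate block, thresholds and each array. A filter on the control arrays alone was added after seeing the data.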

Additional observations from a re-analysis of the deposited data

Results flagged for a closer look

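Data outside the named genes also held strong rises. Of 8730 probe sets that carry no gene name here, 68 met the same thresholds, a response of at least 2 in both lines and a dehydrated mean of at least 8. Of 503 probe sets that name several genes, 3 did so. They have no place in the group because no single gene can be named for them.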

How the results depend on the processing

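The size of the group moved with its definition: 28 genes with a pseudocount of 50, 80 at a response of at least 1.5 and 24 at 2.5. With a dehydrated mean of at least 7 it held 54 genes, and with one of at least 9 it held 30. It held 40 to 50 when each array was left out in turn. Quantile normalization, median centring and a floor at 5 gave 44, 42 and 44. In control seedlings, 1 of the 45 genes was called for the line after median centring, 13 with array weights (where 20.2% of all tested probe sets were called, and the weights did not reach convergence), and 0 to 5 without single arrays; the other settings gave 0. In dehydrated seedlings, fitting the 2 groups alone called 1, AT5G28630, with an adjusted p of 0.0242 in limma, among 1.42% of all tested probe sets; leaving out arrays gave 0 throughout. Over all tested probe sets the interaction was called for 0 in each setting run other than array weights, which called 1 of 14495. Of the 18 list genes, array weights called 11 in WT and 16 in 46T, against 23.9% and 26.0% of all tested probe sets. Leaving out arrays gave 4 to 7 in WT and 9 to 13 in 46T. The lowest WT count came without WT-Dry replicate 1, with 5.77% of all tested probe sets. The highest 46T count came without WT-CK replicate 2, with 12.8%. With 46T fitted alone 15 were called in 46T, against 21.2%. The filter on control arrays alone, chosen after seeing the data, gave 4 in WT and 7 in 46T, against 10.6% and 8.61%. STZ, which met the thresholds, was among the genes it tested. Median centring shifted the median of all tested probe sets in the control comparison from 0.07 to -0.10, and that of the 45 genes from -0.05 to -0.21. In dehydrated seedlings it took the medians from 0.03 to -0.07 and from 0.26 to 0.15.

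Deviations of same-numbered arrays from their group means had correlations of -0.12 to 0.35, with 5 of 18 over 0.1, against 1 of 36 for arrays of different number. The highest were 0.35 and 0.29, between WT-CK and WT-Dry, where each array correlated best with its own number, a hint from the data and not the design. In no pair of groups were all 3 over 0.1, so the numbers were not taken to pair the samples. With the replicate block, 0 of the 45 genes were called in either line comparison, as without it. It called 6 list genes in WT and 12 in 46T, against 12.3% and 11.0% of all tested probe sets.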
